A study of Mus musculus with 15 samples.

Results

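The genes described here code for interleukin-33 (IL-33), the chains of its receptor and the first proteins of the signalling path inside the cell. They were *Il33*, *Il1rl1*, *Il1rap*, *Il1r1*, *Myd88*, *Irak1* and *Irak4*, chosen by symbol. All 7 had a row among the 20910 genes of the cultured cell count table and among the 25038 genes of the tissue count table, and all 7 passed the filter on low counts in every comparison.

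IL-33 is a cytokine of the IL-1 family that is stored in the nucleus of epithelial, endothelial and glial cells and is released when cells are damaged. Outside the cell it binds ST2, the product of *Il1rl1*, which then pairs with the accessory chain coded by *Il1rap*. The same accessory chain serves the IL-1 receptor coded by *Il1r1*. Both receptors recruit the adaptor MyD88 and the kinases IRAK4 and IRAK1, a route that leads to NF-kB and MAP kinases. *Il1rl1* gives rise to a membrane-bound receptor and to a soluble decoy, and counts per gene do not separate these forms.

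The study compared cells with and without prominin-1 (*Prom1*), a membrane glycoprotein whose mutations cause inherited retinal degeneration, in the retinal pigment epithelium (RPE). Cultured mouse RPE (mRPE) came from pooled C57BL/6J mice aged 8 to 12 weeks and was immortalised with the E6 and E7 genes of a papillomavirus carried by lentivirus. The 4 wild-type (WT) mRPE libraries were set against 3 libraries of the *Prom1*-knockout line KO22 and 2 of the line KO26, each line being 1 clone made with Cas9 and a guide RNA, so that clone and knockout cannot be told apart within a line. The RPE/choroid tissue comprised 3 WT libraries and 3 libraries labelled *Prom1*-KO, from mice with floxed *Prom1* and tamoxifen-induced Cre under the *Rpe65* promoter, which deletes the gene in the RPE and not in the other cells of the dissected tissue.

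Total counts per library ran from 8076188 to 27537863 in mRPE and from 48154444 to 61766179 in tissue. The mRPE libraries carried batch numbers in their names, 8995 for 1 library of each group and 9262 for the others. *Prom1* itself was not analysed here in mRPE. In tissue it stood at 48.7, 49.6 and 53.3 CPM (counts scaled to a common library size) in WT and at 49.9, 48.1 and 35.5 CPM in the libraries labelled KO, a log2 fold change of -0.18 ± 0.16 (SE) with an adjusted p of 0.824 in edgeR. A whole-gene count in mixed tissue did not verify the deletion, and directions in tissue rest on the labels. The third KO library of the tissue stood apart, with 80.4% of its counts from mitochondrial ribosomal RNA against 55.3% to 63.2% in the other tissue libraries. Of 10 RPE markers, all were measured in tissue, where their summed level was 1513 to 2210 CPM in WT and 564 to 759 CPM in KO. These markers fell unequally, with a median log2 fold change of -1.45. *Rpe65* (-6.06), *Lrat* (-3.43) and *Rdh5* (-2.10) were called lower by edgeR, and the other 7 were not called. Among those 7, *Ttr* had -3.01, while *Best1* (-0.25), *Tyrp1* (-0.16) and *Pmel* (-0.15) had the smallest changes. In mRPE 4 of the 10 were measured, at a sum of 11.8 to 17.4 CPM in WT, while 7 of 8 fibroblast markers, collagens among them, summed to 13154 to 17816 CPM.

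On the mouse genome GRCm39, *Il33* (ENSMUSG00000024810) lies on the plus strand at chr19:29902483-29938933. *Il1rl1* (ENSMUSG00000026069) lies on the plus strand at chr1:40468730-40504575, in a cluster with *Il1r1* (ENSMUSG00000026072) at chr1:40264174-40356417. *Il1rap* (ENSMUSG00000022514) is at chr16:26400350-26548880 on the plus strand. *Myd88* (ENSMUSG00000032508, minus strand) is at chr9:119165000-119170486, *Irak4* (ENSMUSG00000059883, plus strand) at chr15:94441161-94479696 and *Irak1* (ENSMUSG00000031392, minus strand) at chrX:73056964-73067554. *Il33*, *Il1rap*, *Myd88* and *Irak4* each overlap a gene annotated on the opposite strand, and whether the counts used strand is not given in the sources used here.

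*Il33* and *Il1rl1* each have a pair of RefSeq transcription starts, and the sequence before each is shown because these are the ligand and the specific receptor chain that rose furthest in the KO22 line. The bases come from the RefSeq promoter table and were matched to GRCm39, leaving out bases that GENCODE annotates as exon. Capitals mark the GATA motif AGATAA, on either strand.
Il33, first start, chr19:29902263-29902482: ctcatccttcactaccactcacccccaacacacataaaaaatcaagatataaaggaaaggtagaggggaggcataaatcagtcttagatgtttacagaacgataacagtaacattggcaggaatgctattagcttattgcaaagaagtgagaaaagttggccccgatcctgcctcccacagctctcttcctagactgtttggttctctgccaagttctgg
Il33, second start, chr19:29922940-29923141: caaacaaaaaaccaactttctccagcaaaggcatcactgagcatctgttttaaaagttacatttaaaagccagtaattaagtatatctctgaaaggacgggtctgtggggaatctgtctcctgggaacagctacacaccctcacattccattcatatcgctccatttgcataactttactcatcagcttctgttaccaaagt
Il1rl1, first start, chr1:40468480-40468729: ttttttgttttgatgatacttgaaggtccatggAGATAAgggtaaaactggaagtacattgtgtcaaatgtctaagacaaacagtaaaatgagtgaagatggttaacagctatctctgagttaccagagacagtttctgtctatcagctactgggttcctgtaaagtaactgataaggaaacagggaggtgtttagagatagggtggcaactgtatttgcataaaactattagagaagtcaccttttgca
Il1rl1, second start, chr1:40478539-40478786: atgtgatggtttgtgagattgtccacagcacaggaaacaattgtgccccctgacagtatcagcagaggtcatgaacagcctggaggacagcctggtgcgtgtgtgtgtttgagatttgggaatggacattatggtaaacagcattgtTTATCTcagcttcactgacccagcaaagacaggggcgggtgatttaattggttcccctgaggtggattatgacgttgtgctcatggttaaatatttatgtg

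The second start lies 20677 bases after the first in *Il33* and 10059 bases after it in *Il1rl1*. Gene counts do not tell which start was in use. In the 250 bases before each start, GATA occurred once at each *Il1rl1* start, 217 to 212 bases before the first and 103 to 98 bases before the second, the latter on the minus strand. Of 32536 RefSeq promoter windows of that length, 9.97% hold GATA. The AP-1 motif TGANTCA (in 6.73% of windows), the kB motif GGANTTTCC (1.07%) and the GAS motif TTCNNNGAA (7.04%), searched on both strands, had no match before the starts of *Il33*, *Il1rl1* or *Il1rap*, which says only that these letters are absent from those windows.

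*Il33*, the ligand, was close to the detection limit in WT mRPE and abundant in KO22. The 4 WT libraries held 11, 6, 4 and 2 counts, equal to 0.437, 0.411, 0.393 and 0.144 CPM. The 3 KO22 libraries held 6025, 2540 and 1605 counts, equal to 521, 122 and 125 CPM. Every KO22 library lay above every WT library, and the first KO22 library, of batch 8995, lay far above the other two. The log2 fold change was 9.39 ± 0.29 (SE), or 673-fold, with an adjusted p of 1.61e-07 (edgeR quasi-likelihood test, Benjamini-Hochberg over 20455 genes). This SE was derived from the F value of the test and is only approximate for a gene so close to the detection limit in WT. *Il33* ranked sixth by p among all genes tested. With too few WT libraries at 5 counts or more, it passed the count filter in this comparison only through the KO22 libraries. Without the first KO22 library the log2 fold change was 8.61. Within batches, on the log2(CPM + 0.5) scale, KO22 exceeded WT by 9.12 in batch 8995 and by 7.27 in batch 9262. The added 0.5 is larger than every WT value of *Il33*. It shrinks these differences, which are therefore not comparable with the fitted fold change.

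*Il1rl1*, which codes for the specific IL-33 receptor ST2, was already expressed in WT mRPE and was higher in KO22. It stood at 27.3, 17.9, 17.97 and 19.1 CPM in WT and at 256, 207 and 152 CPM in KO22. The groups did not overlap, and both batches showed the same order. The log2 fold change was 3.27 ± 0.13 (SE), or 9.67-fold, with an adjusted p of 3.65e-07 in edgeR. The within-batch differences on the log2(CPM + 0.5) scale were 3.21 in batch 8995 and 3.24 in batch 9262.

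*Il1rap*, the accessory chain, was the third gene of the group to rise in KO22. Its level was 9.14, 18.8, 18.2 and 18.7 CPM in WT and 44.9, 56.0 and 44.8 CPM in KO22. No KO22 library reached down to a WT library, although the WT library of batch 8995 lay well below the other three. The log2 fold change was 1.69 ± 0.18 (SE), or 3.22-fold, with an adjusted p of 5.17e-05 in edgeR. Within batches the difference was 2.24 in batch 8995 and 1.41 in batch 9262 on the log2(CPM + 0.5) scale.

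The IL-1 receptor chain and the shared adaptors did not pass the limits in KO22. *Il1r1*, the signalling receptor of IL-1, was at 84.3, 145, 124 and 130 CPM in WT and stood at 99.7, 132 and 125 CPM in KO22. Its log2 fold change was 0.03 ± 0.11 (SE), with an adjusted p of 0.8295 in edgeR, and its sign changed with the processing. *Myd88* ranged from 10.8 to 13.2 CPM in WT and from 12.0 to 18.6 CPM in KO22. Its log2 fold change was 0.38 ± 0.15 (SE), with an adjusted p of 0.0563. *Irak1* (log2 fold change 0.15, adjusted p = 0.386 in edgeR) and *Irak4* (-0.04, adjusted p = 0.847) overlapped between the groups as well. Their CPM ranges in KO22 were 29.2 to 47.7 for *Irak1* and 31.6 to 39.1 for *Irak4*.

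In all, 3 of the 7 genes were called higher in KO22 and none lower, at an adjusted p below 0.05 and an absolute log2 fold change above 1.2. Among all genes tested, 11.4% were called higher and 13.8% lower by the same rule. The comparison changed many genes, and the count of 3 is read against that background. *Il33*, among the 3, passed the count filter only through the KO22 libraries.

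**Figure D1:**
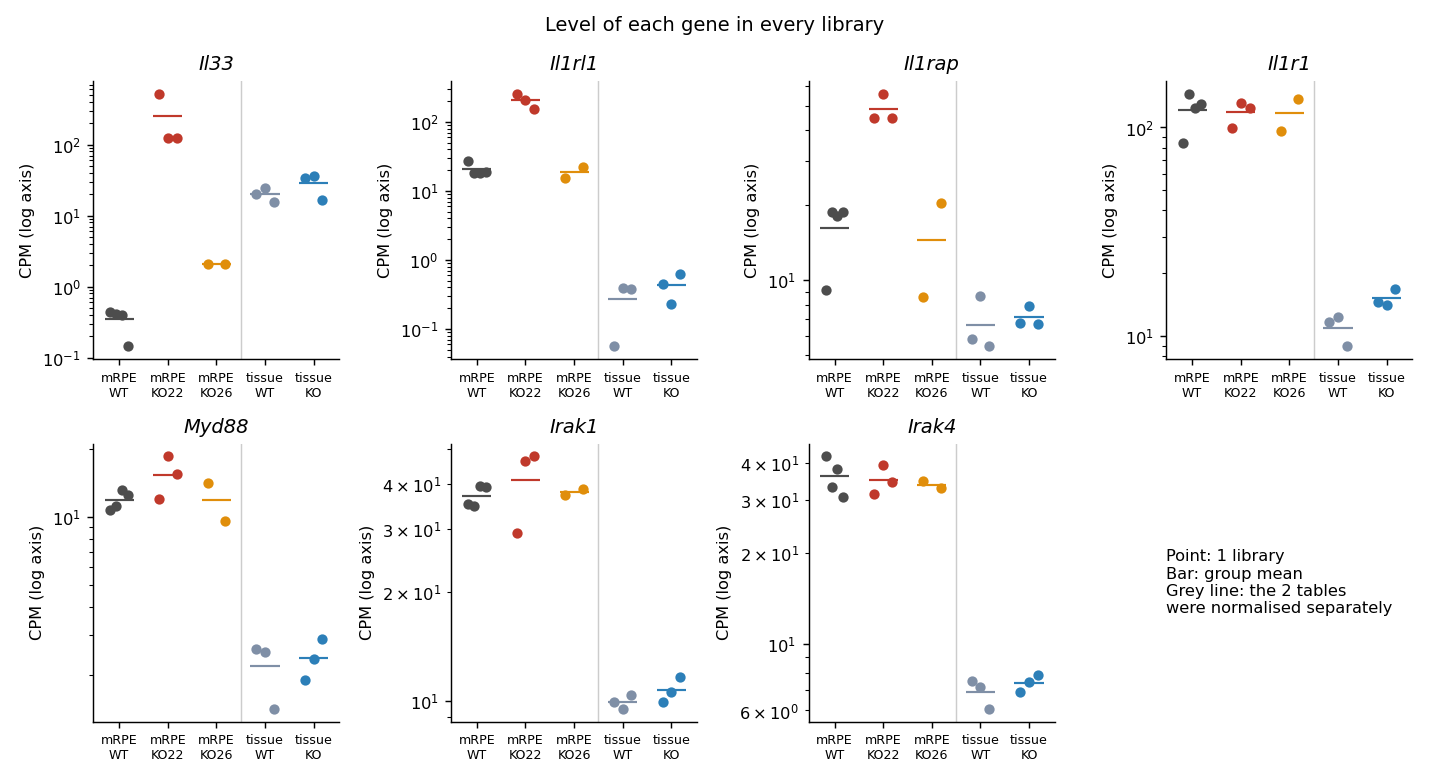
Level of the 7 genes in every library, in CPM on a log axis, with 1 point per library and a bar at the group mean. *Il33*, *Il1rl1* and *Il1rap* lie higher in all 3 KO22 libraries than in all 4 WT libraries, whereas the points of *Il1r1*, *Myd88*, *Irak1* and *Irak4* overlap between these groups.

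The other knockout line, KO26, did not share the rise of the receptor chains. *Il33* stood at 2.09 and 2.08 CPM (45 and 18 counts), above all 4 WT libraries and far below all 3 KO22 libraries. Its log2 fold change against WT was 2.25 ± 0.56 (SE), with an adjusted p of 0.0551 in edgeR, just outside the limit. This call depended on the fit, since 5 of 19 alternatives placed *Il33* past both limits, among them DESeq2 (log2 fold change 2.39, adjusted p = 0.00085) and the fit of WT and KO26 libraries alone (2.46, adjusted p = 0.00195). Leaving out 1 library at a time moved the value between 1.58 and 3.43. It was 3.43 (adjusted p = 0.0372) without the first KO26 library and 2.47 (adjusted p = 6.83e-05) without the first KO22 library, both past the limits. It was 1.58 (adjusted p = 0.0747) without the second KO26 library and 1.63 (adjusted p = 0.236) without the first WT library. Within batches *Il33* in KO26 exceeded WT by 1.47 in batch 8995 and by 1.68 in batch 9262 on the log2(CPM + 0.5) scale. The added 0.5 shrinks these differences too, so they are not comparable with the fitted value.

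*Il1rl1* stood at 15.5 and 22.3 CPM in KO26, the first below and the second inside the WT range of 17.9 to 27.3 CPM, with a log2 fold change of -0.17 ± 0.23 (SE) and an adjusted p of 0.714 in edgeR. *Il1rap* stood at 8.58 and 20.4 CPM, and its log2 fold change was -0.04 ± 0.24 (SE), with an adjusted p of 0.949. The low *Il1rap* value came from the batch 8995 library, as did the low value in WT. *Il1r1*, *Myd88*, *Irak1* and *Irak4* had log2 fold changes of 0.09, 0.06, 0.11 and -0.11. None of the 7 genes was called in KO26 by edgeR, 1 of them (*Il33*) had an unadjusted p below 0.05, and DESeq2 called 1. Of all 20737 genes, 1.92% were called in either direction, and 4163 had an unadjusted p below 0.05 in edgeR.

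The difference between the lines was tested directly. *Il33* was higher in KO22 than in KO26 by a log2 fold change of 7.07 ± 0.46 (SE), with an adjusted p of 3.23e-06 in edgeR. *Il1rl1* was higher by 3.46 ± 0.27 (SE), adjusted p = 1.02e-05, and *Il1rap* by 1.76 ± 0.25 (SE), adjusted p = 0.000498. All 3 were separated without overlap. None of the other 4 genes was called, and their log2 fold changes lay between -0.05 and 0.32. By the same limits 7.56% of all genes were higher in KO22 and 10.7% were higher in KO26. The KO22 libraries are shared with the comparison against WT, so these values are not a second sample of the KO22 cells.

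**Figure D2:**
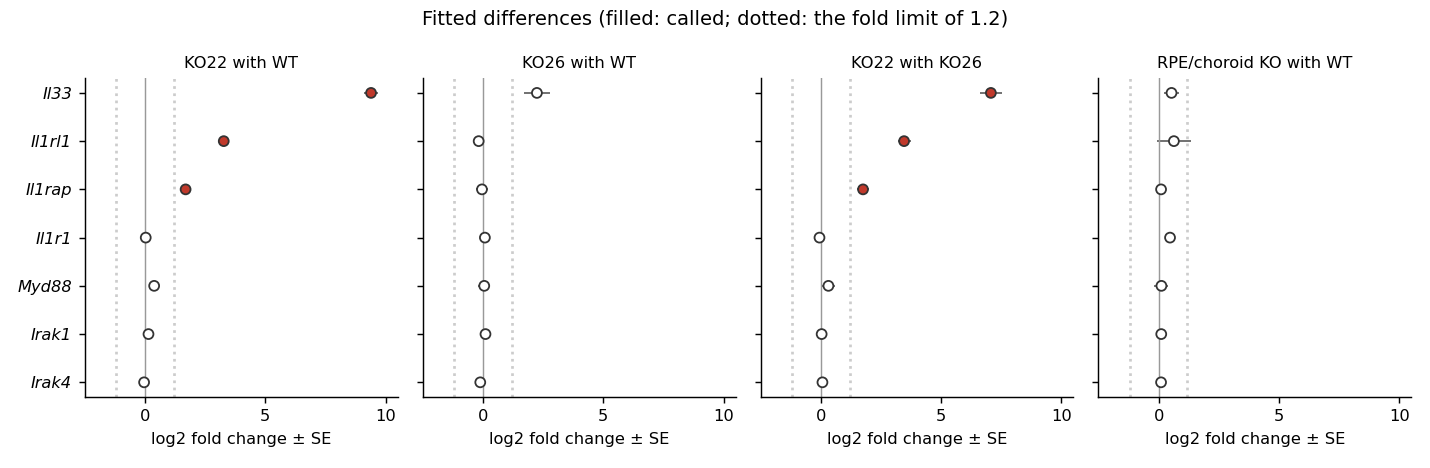
Fitted log2 fold changes of the 7 genes in the 4 comparisons, with bars of 1 SE, filled where a gene was called and dotted lines at the fold limit of 1.2. *Il33*, *Il1rl1* and *Il1rap* are filled against WT and against KO26 in KO22, *Il33* in KO26 sits at 2.25 unfilled, and no gene is filled in RPE/choroid.

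In RPE/choroid tissue *Il33* was readily detected and *Il1rl1* was scarce. *Il33* stood at 20.2, 24.2 and 15.4 CPM in WT and at 33.6, 36.3 and 16.6 CPM in the libraries labelled KO. The first 2 KO libraries lay above all WT libraries and the third, the one with 80.4% mitochondrial ribosomal RNA, lay within the WT range. The log2 fold change was 0.54 ± 0.31 (SE), with an adjusted p of 0.714 in edgeR, and without the third KO library it was 0.80 (adjusted p = 0.314). In whole tissue, fewer cells of a type and less RNA per cell cannot be told apart. Summed markers of Müller glia, a retinal cell type known to store IL-33, were 281 to 470 CPM in WT and 383 to 584 CPM in KO (8 of 8 measured). The sum was mostly *Glul* and *Dkk3*, and the list had a median log2 fold change of 1.09, with 6 of 8 genes at an unadjusted p below 0.05 and none called by edgeR. *Gfap* (log2 fold change 4.11), *Kcnj10* (2.07), *Slc1a3* (2.04) and *Aqp4* (1.48) had the largest positive values, and *Rlbp1*, which RPE expresses too, had -2.07. Summed markers of endothelium, another such type, were 96.5 to 193 CPM in WT and 62.9 to 84.5 CPM in KO (8 of 8 measured), with a median log2 fold change of -0.84, 7 of 8 at an unadjusted p below 0.05 and none called by edgeR. Of all genes in tissue, 2027 had an unadjusted p below 0.05 with DESeq2, the number with edgeR not being given here. The part of the glial and endothelial markers in the *Il33* level was not tested.

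*Il1rl1* held 4, 23 and 26 counts in the WT tissue libraries and 23, 14 and 19 in the KO libraries, equal to 0.0561 to 0.389 CPM and 0.229 to 0.630 CPM. At this depth a difference between the groups was not detectable (log2 fold change 0.64 ± 0.71, adjusted p = 0.866 in edgeR). Markers of mast cells, which carry ST2, summed to 13.8 to 14.98 CPM in WT and 13.1 to 18.8 CPM in KO (7 of 8 measured). Those of group 2 innate lymphoid and T cells, which include other ST2-bearing cells, summed to 20.5 to 31.1 CPM in WT and 31.9 to 39.9 CPM in KO (7 of 8 measured), with only a narrow gap. The lymphoid list had a median log2 fold change of 0.27, with 2 of 7 genes at an unadjusted p below 0.05 and none called by edgeR. Its values ran from -0.24 (*Gata3*) to 0.94 (*Cd3e*). The part of the mast cell and lymphoid markers in the *Il1rl1* level was not tested.

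*Il1r1* stood at 11.6, 12.3 and 8.92 CPM in WT tissue and at 14.6, 14.2 and 16.9 CPM in KO, the highest value being that of the third KO library. The groups did not overlap. The share of all genes that separate in this way was not counted, so the separation is not read as a result. The log2 fold change was 0.47 ± 0.16 (SE), with an unadjusted p of 0.0205 and an adjusted p of 0.472 in edgeR, and it fell to -0.02 when only total counts were used for scaling, a setting that moved the median of all genes to -0.46. The RPE marker sum, whose genes fell unequally, also separated the groups, in the other direction. The part of the RPE markers in the *Il1r1* value was not tested. *Il1rap* (log2 fold change 0.10), *Myd88* (0.12), *Irak1* (0.11) and *Irak4* (0.10) overlapped between the groups. None of the 7 genes was called in tissue by edgeR or by DESeq2, and 1 had an unadjusted p below 0.05. Of all genes, 0.189% were called in either direction, 47 of 24926.

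Compared per kilobase of exon, the order of the 7 genes differed between the cultured cells and the tissue. In all 4 WT and both KO26 mRPE libraries *Il1r1* was highest and *Il33* lowest, and *Il1rl1* exceeded *Il33* by 39.0-fold to 119-fold in WT and by 6.67-fold and 9.61-fold in KO26. In all 6 tissue libraries *Il33* was highest and *Il1rl1* lowest, and *Il33* exceeded *Il1rl1* by 29.3-fold to 401-fold. In the KO22 line the ligand and its receptor were the top 2 genes in every library, with *Il33* 2.27 times *Il1rl1* in the first library and 0.659 and 0.913 times it in the other two.

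The mean levels per kilobase in WT mRPE were 17.7 ± 3.804 CPM for *Il1r1*, 6.67 ± 0.451 for *Irak1*, 5.71 ± 0.796 for *Irak4*, 3.06 ± 0.287 for *Myd88*, 2.98 ± 0.653 for *Il1rl1*, 1.06 ± 0.309 for *Il1rap* and 0.0560 ± 0.0221 for *Il33* (SD, n = 4). The libraries of *Irak1* and *Irak4* overlapped in level, as did those of *Myd88* and *Il1rl1*, and the other neighbours in this order did not. In WT tissue they were 3.22 ± 0.714 CPM for *Il33*, 1.78 ± 0.0814 for *Irak1*, 1.61 ± 0.262 for *Il1r1*, 1.10 ± 0.119 for *Irak4*, 0.562 ± 0.172 for *Myd88*, 0.434 ± 0.115 for *Il1rap* and 0.0398 ± 0.0275 for *Il1rl1* (SD, n = 3). There *Irak1* overlapped with *Il1r1* and *Myd88* with *Il1rap*, and the other neighbours did not overlap. The 2 tables were normalised separately, so no level was tested between them.

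**Figure D3:**
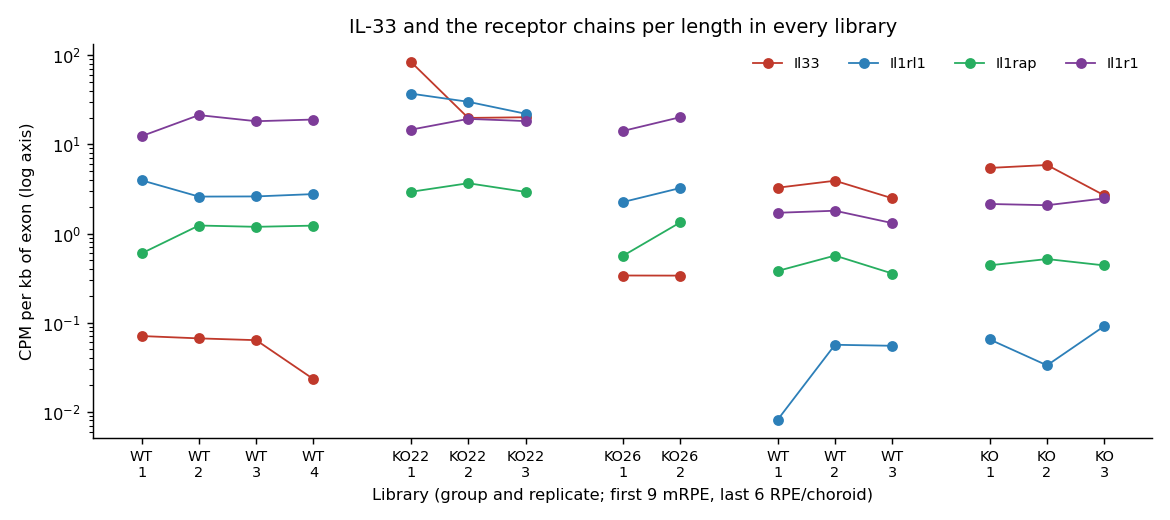
Level per kilobase of exon of *Il33* and the 3 receptor chains in every library, on a log axis, with lines joining the libraries of a group. *Il33* is the lowest of the 4 in WT and KO26 mRPE, reaches the level of *Il1rl1* in KO22, and is the highest in all 6 tissue libraries, where *Il1rl1* is the lowest.

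Genes beside *Il33* and *Il1rl1* on the chromosome were examined, taking the 3 protein-coding RefSeq genes on each side where they were measured. Next to *Il33*, *Ranbp6* had a log2 fold change of -0.78 in KO22 against WT (adjusted p = 0.00211 in edgeR) and *Uhrf2* of 0.14 (adjusted p = 0.347). *Gldc*, the glycine decarboxylase, had one of 1.11 (adjusted p = 0.0421), below the fold limit. No neighbour of *Il33* passed both limits. Around *Il1rl1*, the IL-1 receptor family cluster gave unequal values. *Il1rl2*, the IL-36 receptor chain that directly precedes it, had a log2 fold change of -0.52 (adjusted p = 0.00309), and *Il1r1* before that one 0.03. *Il18rap*, the accessory chain of the IL-18 receptor and the next gene but one after *Il1rl1*, was called higher. It averaged 4.05 ± 0.246 CPM in WT (SD, n = 4) and 40.1 ± 2.23 CPM in KO22 (SD, n = 3), and its log2 fold change was 3.30 ± 0.13 (SE), with an adjusted p of 3.72e-07. In KO26 *Il18rap* had a log2 fold change of 0.59 (adjusted p = 0.137). The gene between them, *Il18r1*, was not analysed here in mRPE.

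**Figure D4:**
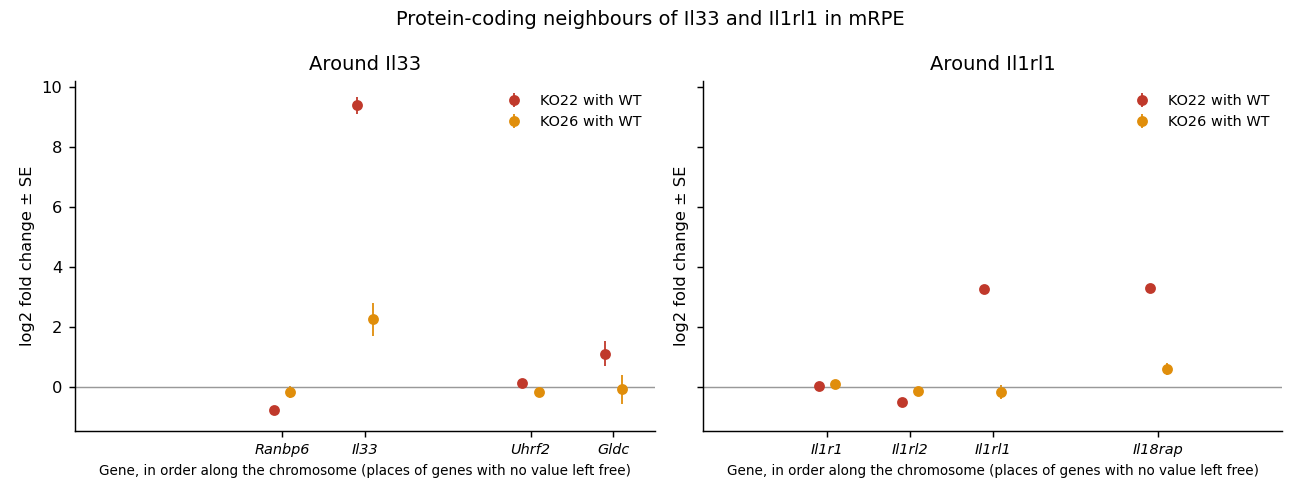
Log2 fold changes, with bars of 1 SE, of *Il33*, *Il1rl1* and their measured protein-coding neighbours in mRPE, by order along the chromosome, for KO22 and KO26 against WT. *Il33* at 9.39 stands alone among its measured neighbours in KO22, while *Il1rl1* at 3.27 and *Il18rap* at 3.30 stand above *Il1r1* and *Il1rl2*.

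Other genes of the pathway were taken as 6 lists of 87 genes in all, of which 65 were tested in KO22 against WT. There, 17 (26.2%) were called higher and 3 (4.62%) lower, beside 11.4% and 13.8% of all genes. Among the 17 are *Il1a*, *Prtn3*, *Areg* and *Il11*, which passed the count filter only through the KO22 libraries. Of the other IL-1 family ligands, 3 of 9 were tested and all 3 were called. *Il1a*, an alarmin that signals through *Il1r1*, averaged 0.113 ± 0.123 CPM in WT (SD, n = 4) and 4.69 ± 2.39 CPM in KO22 (SD, n = 3), and rose by 5.44 on the log2 scale. It held 0 to 4 counts in the WT libraries, so it passed the count filter only with all 3 KO22 libraries, and 4 of 17 alternatives called 1 of these ligands higher in place of 2. *Il1rn*, the natural IL-1 receptor antagonist, rose by 1.38 from 143 ± 28.5 CPM in WT, and *Il18* decreased by 1.81 on the log2 scale. Among the other receptors and decoys, 4 of 8 were tested, with *Il18rap* called higher and *Il1rapl1* lower (log2 fold change -3.62).

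The next list ran from the IRAK partners to TAK1 and the kinases after it. None of its 23 genes passed both limits in KO22 with edgeR or DESeq2. By adjusted p alone in edgeR, 9 were higher and 5 lower, so these 14 missed only the fold limit. The median log2 fold change of the list was 0.17, beside -0.03 over all genes, and the values ran from -1.13 to 1.18. Of 17 alternatives, 13 called none of the list lower and 3 called 2. In the list of brakes on the pathway, such as the NF-kB inhibitor and deubiquitinase genes, none of 12 passed both limits with either tool. Adjusted p alone was passed by 3 higher and 2 lower brakes, 8 had an unadjusted p below 0.05, and the median was 0.34. Over all 20455 genes, 10837 passed adjusted p alone and 11938 had an unadjusted p below 0.05. The counts above are read against that background.

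Genes for proteases that cut IL-33 were among those called higher in KO22. *Casp1*, the inflammatory caspase, rose from 1.71 ± 0.615 to 37.2 ± 1.15 CPM, a log2 fold change of 4.54. *Prtn3*, the neutrophil proteinase 3, stayed low in absolute terms, at 0.959 ± 0.254 CPM in KO22, with a log2 fold change of 3.94. It held 0 to 4 counts in the WT libraries and passed the count filter only through the KO22 libraries.

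Of the cytokine and adhesion genes known to answer IL-33 in other cells, 17 of 22 were tested, 11 were called higher and 1 lower in KO22, shares of 64.7% and 5.88% beside 11.4% and 13.8% of all genes. The median log2 fold change of the list was 2.11, beside -0.03 over all genes. The 6 with the largest values were *Areg* (5.39), an epidermal growth factor receptor ligand, the adhesion molecule *Icam1* (3.81), the chemokines *Ccl5* (3.79), *Cxcl10* (3.28) and *Cxcl2* (3.08), and the cytokine *Lif* (2.88). The *Icam1* mean was 1.25 ± 0.856 CPM in WT and 14.5 ± 3.37 CPM in KO22. *Areg* held 2 to 6 counts in the WT libraries, and *Il11*, also called higher (2.11), held 1 to 4. Both passed the count filter only through the KO22 libraries, and both count in the 64.7%. In KO22 *Areg* ran from 2.89 to 24.8 CPM, with a median of 5.20 CPM. *Il5* was the 1 gene called lower (-1.35, adjusted p = 0.0464 in edgeR), at 3 to 16 counts per library. The count of genes called lower in this list was unstable, differing from 1 in 11 of 17 alternatives, with 0 in 8 of them, DESeq2 included, and 2 in the other 3. These genes answer many other signals too, *Il1a* among them, and the list does not tell which was at work.

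In KO26 against WT the same lists gave 0 genes called higher and 1 called lower among 66 tested with edgeR, with 15 at an unadjusted p below 0.05. An unadjusted p below 0.05 in edgeR was found for 4163 of all 20737 genes. The 1 call is 1.52% of the genes in the lists, near the 1.92% of all genes called. The 1 gene was *Irak3*, a kinase-dead brake on MyD88 signalling, with a log2 fold change of -1.32 (adjusted p = 0.00859 in edgeR), from 32.5 ± 8.13 CPM in WT to 11.9 ± 4.46 CPM in KO26. DESeq2 called 1 cytokine gene higher in KO26 as well. Between the lines, 16 of the 66 genes (24.2%) were called with more in KO22 and 5 (7.58%) with more in KO26, beside 7.56% and 10.7% of all genes. The first set included *Il1a* (6.22) and *Il1rn* (2.46) among the ligands, *Il18rap* (2.72) among the receptors, and *Casp1* (4.10) among the proteases. *Peli2*, a ubiquitin ligase that acts on IRAK proteins, was also in it (1.63). Of the cytokine and adhesion genes, 10 of 18 were in that set, led by *Icam1* (4.93), *Cxcl2* (4.80), *Areg* (4.14), *Cxcl1* (3.95), *Il6* (3.21) and *Ccl5* (2.57). The second set included *Il1rapl1* (-3.18), *Il18* (-2.27), the kinase gene *Irak2* (-1.52) and the IL-18 decoy *Il18bp* (-1.45). In tissue none of 77 genes tested in the lists was called with edgeR, and 9 had an unadjusted p below 0.05. DESeq2 called 2 of the cytokine and adhesion genes higher, and put 2027 of all genes at an unadjusted p below 0.05.

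**Figure D5:**
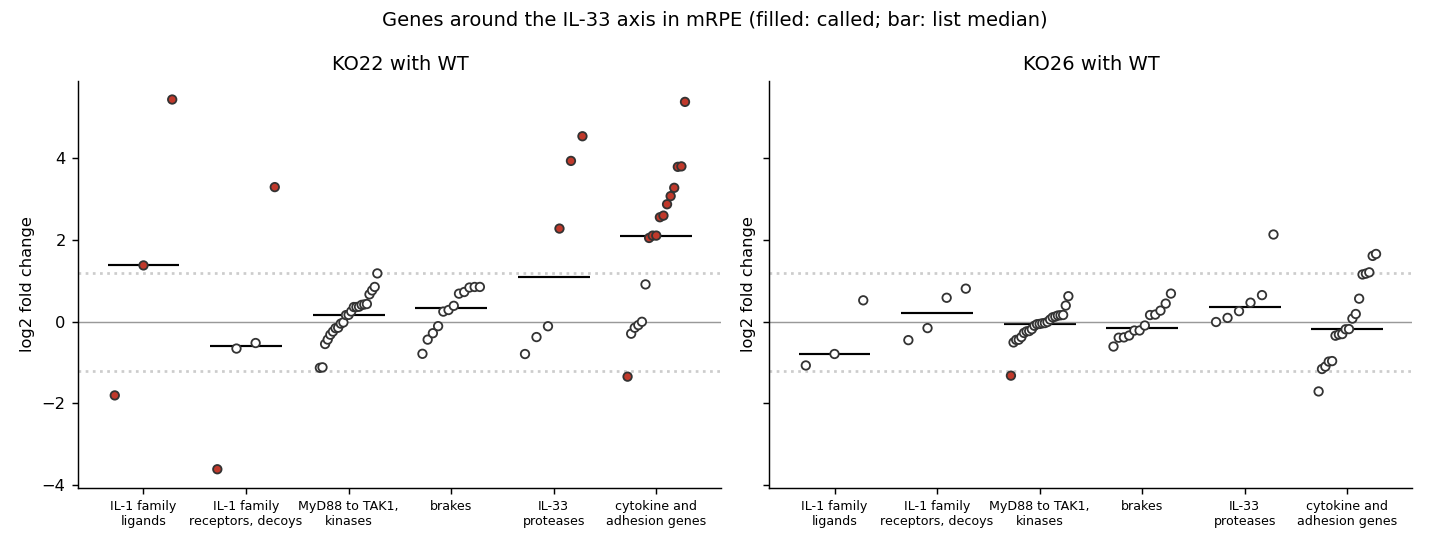
Log2 fold changes of the genes in 6 pathway lists in mRPE, for KO22 and KO26 against WT, with 1 point per gene, filled where called, a bar at each list's median and dotted lines at the fold limit of 1.2. In KO22 filled points lie above 2 among the proteases and the cytokine and adhesion genes, *Il5* is the 1 filled point below 0 in the latter list, and the list after MyD88 and the brakes hold no filled point.

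Markers of other cell types were set beside the KO22 values. In mRPE, 3 of 8 macrophage markers were measured and together reached 7.75 to 9.72 CPM in WT and 10.9 to 13.8 CPM in KO22. Of 8 mast cell markers 1 was measured, at 0.820 CPM or less in every WT and KO22 library. Endothelial markers (5 of 8 measured) summed to 153 to 237 CPM in WT, 3.96 to 5.30 CPM in KO22 and 56.6 to 74.2 CPM in KO26. This sum was nearly all *Kdr*, with means of 177 CPM in WT and 2.21 CPM in KO22, and the list did not move together. *Kdr* and *Tek* were called lower in KO22 (log2 fold change -6.22 and -2.38), *Plvap* was called higher (1.82), and *Pecam1* (-0.29) and *Esam* (0.50) were not called. Fibroblast markers (7 of 8 measured) were 13154 to 17816 CPM in WT, 5678 to 8797 CPM in KO22 and 20275 to 22116 CPM in KO26. In KO22 5 of the 7 were called lower, while *Col3a1* (-0.47) and *Dcn* (0.61) were not called. Müller glia markers (3 of 8 measured) were 202 to 265 CPM in WT, 113 to 124 CPM in KO22 and 210 to 216 CPM in KO26. In KO22 *Dkk3* (-1.65) was called lower, while *Glul* (-1.02) and *Slc1a3* (0.78) were not called. Markers of group 2 innate lymphoid and T cells (2 of 8 measured, *Gata3* and *Thy1*) were 12.6 to 25.1 CPM in WT, 2.16 to 5.43 CPM in KO22 and 14.7 to 19.3 CPM in KO26. *Thy1* is in the fibroblast list too. The macrophage, endothelial, fibroblast, Müller glia and lymphoid sums differed between WT and KO22 without overlap, as *Il33*, *Il1rl1* and *Il1rap* did. The endothelial, fibroblast and Müller glia genes did not all move together within their lists in KO22. In KO26 the macrophage and fibroblast sums lay above the WT range, the endothelial sum below it, and the lymphoid and Müller glia sums inside it. The part of the markers in the results was not tested.

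The 5 genes with the pattern most like *Il33* over the 9 mRPE libraries, by Pearson's r of log2 CPM among 17731 genes, were the chloride transporter gene *Clcn5* (0.998), *Tiam1* (0.995), *Gpr132* (0.991), the transcription factor gene *Sox9* (0.990) and *Me1* (0.990). *Sox9* had mean levels of 14.9 CPM in WT, 83.9 CPM in KO22 and 20.0 CPM in KO26. The 5 most like *Il1rl1* were the focal adhesion kinase gene *Ptk2* (0.997), *Lgi3* (0.996), *Far1* (0.994), *Serpine2* (0.994) and the prostaglandin receptor gene *Ptger2* (0.992). *Ptger2* had mean levels of 0.478 CPM in WT, 27.9 CPM in KO22 and 0.764 CPM in KO26. These values describe 9 libraries that fall into a high KO22 group and the rest, so many genes reach a high r. *Il33* and *Il1rl1* had an r of 0.955 with each other.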

How the data were processed

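RNA from 9 mRPE and 6 RPE/choroid libraries was sequenced with stranded kits. Per the labels and the study's methods, the authors trimmed reads with Trim Galore 0.6.7, aligned them to mm39 with STAR and counted reads per gene. The deposited raw counts, 1 table for mRPE and 1 for tissue, were used here. The deposited normalized tables hold a signal that the authors made by dividing the counts by 1 size factor per library, and were not tested.

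Each comparison was fitted with edgeR 4.0.16 in R 4.3.3 (quasi-likelihood test, TMM scaling, a minimum of 5 counts per gene in 3 or more libraries, p-values adjusted by Benjamini-Hochberg), with the library batch as a term in mRPE. A gene was called at an adjusted p below 0.05 and an absolute log2 fold change above 1.2. KO22 against WT used 7 libraries, the 2 comparisons with KO26 all 9, and tissue 6. The study left out KO26 as outlying. DESeq2 1.42.0 was an alternative. CPM used TMM library sizes within a table, and levels per kilobase used the exon union of GENCODE M39, in place of the RefSeq transcript lengths first planned. Promoters came from RefSeq (GRCm38.p6) and were matched to GRCm39 by sequence. Rows with no gene symbol took 0.0262% to 0.303% of counts. The tests were tried on simulated data. Libraries of a line are not stated to be separate cultures, so p-values may measure technical spread.

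The genes and lists were chosen with earlier results of these data known. Named genes were the 7 chosen, called list genes (at most the 6 with the largest change per list), the 5 most similar profiles, and the chromosomal neighbours. *Il5* and *Il11* were named after their values were seen. Some called list genes are not reported here by name.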

Additional observations from a re-analysis of the deposited data

Results flagged for a closer look

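In the 4 WT mRPE libraries, 3 of the 7 genes had a library far from the others by Dixon's gap criterion, which chance meets in about 1 in 20 groups, with 7 groups checked. *Il33* was lowest at 0.144 CPM in the fourth library, against 0.393 to 0.437 CPM in the others, a difference between 2 counts and 4 to 11 counts. *Il1rl1* was highest at 27.3 CPM in the first library, against 17.9 to 19.1 CPM. *Il1rap* was lowest at 9.14 CPM in that same library, against 18.2 to 18.8 CPM. The first library is the 1 WT library of batch 8995, and the part of the batch was not tested.

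The response of the 2 knockout lines differed by the direct test. *Il33* was higher in KO22 than in KO26 by a log2 fold change of 7.07, *Il1rl1* by 3.46 and *Il1rap* by 1.76, each in all 3 KO22 libraries against both KO26 libraries.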

How the results depend on the processing

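*Il33*, *Il1rl1* and *Il1rap* were called higher in KO22 under all 17 alternatives against WT (log2 fold change 8.58 to 9.71, 3.09 to 3.34 and 1.43 to 1.83) and all 18 against KO26 (5.86 to 7.81, 2.99 to 4.06 and 1.29 to 2.12). Excluding mitochondrial genes was added after seeing the data. For KO26 against WT, members called went from 0 to 1 (*Il33*) with DESeq2, with batch 9262 alone (log2 fold change 2.72), with WT and KO26 alone, and in 2 of the fits that left out a library (range 0 to 1). Genes called in that comparison went from 399 to 725 by adjusted p alone, 629 with DESeq2, 194 without the batch term, 681 in batch 9262, 818 with WT and KO26 alone, and 114 to 878 with a library left out. Adjusted p alone called 10837 genes against 5154 in KO22 against WT and 7132 against 3797 between the lines. In tissue 47 became 88 with total counts, 271 with DESeq2 and 9 to 40 with a library left out.

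Changes of sign occurred only in genes not called. In KO22 against WT, *Il1r1* was -0.011 with total counts, -0.035 with edgeR's own filter, -0.026 without the batch term and -0.048 in batch 9262, and -0.065 to 0.078 with a library left out, while *Irak4* was 0.13 in batch 9262 and -0.19 to 0.14 with a library left out. In KO26 against WT, batch 9262 gave 0.29 for *Il1rl1*, 0.14 for *Il1rap* and -0.34 for *Myd88*, WT and KO26 alone gave 0.021 for *Il1rap* and -0.022 for *Myd88*, and *Il1r1* was -0.046 without the batch term. Leaving out a library there gave -0.79 to 0.28 for *Il1rl1*, -0.43 to 0.23 for *Il1rap*, -0.39 to 0.50 for *Myd88*, -0.033 to 0.27 for *Irak1* and -0.17 to 0.048 for *Irak4*. Between the lines, *Il1r1* was 0.022 without the batch term, and with a library left out *Il1r1* was -0.14 to 0.0026, *Myd88* -0.12 to 0.77, *Irak1* -0.13 to 0.27 and *Irak4* -0.012 to 0.25. In tissue, total counts gave -0.33 for *Il1rap*, -0.018 for *Il1r1*, -0.40 for *Myd88*, -0.39 for *Irak1* and -0.38 for *Irak4*, and a library left out gave -0.021 to 0.34 for *Il1rap* and -0.12 to 0.27 for *Myd88*. The causes were not tested. No paired analysis was possible because the labels give no replicate numbers shared between groups. Low counts of *Il33* in WT mRPE and of *Il1rl1* in tissue limit the precision of both.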
